A study of Penicillium oxalicum with 6 samples.

Results

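POX_f08105 to POX_f08149 are neighbouring genes of the filamentous fungus *Penicillium oxalicum*, and the middle of this stretch, POX_f08120 to POX_f08134, is an unbroken block of 15 genes with higher transcript levels after deletion of *rsrC*. The block was chosen by its measured FPKM (sequenced fragments of a gene relative to gene length and library depth) in the 6 libraries described here, and 15 gene numbers on each side of it were added as flanks. The range spans 45 numbers, of which 44 are among the 9822 genes of the tables: 15 in the block, 14 in the left flank (POX_f08105 to POX_f08119) and 15 in the right flank (POX_f08135 to POX_f08149). POX_f08112 was not analysed here. Because the difference between the strains chose the block, that difference is given as a description, and where the calls of the fit over all genes are counted for block genes they support nothing beyond it.

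Mycelium RNA was sequenced in 3 libraries of the mutant Δ*rsrC* and 3 libraries of its parental strain Δ*ku70*. Both strains lack *ku70*, a gene of non-homologous end joining whose loss favours integration of introduced DNA at its target, so the parent is not a wild type even though its genotype label says so. The mutant carries in addition a deletion of *rsrC* (POX_a01508), which encodes a C2H2 zinc-finger protein. Its label reads POX00418, which was taken here to stand for *rsrC*, as POX_a01508 was at 0 FPKM in its 3 libraries. Spores were grown for 24 h in glucose medium, and RNA was taken 24 h after transfer of the mycelium to enzyme production medium. The labels give the carbon source of that medium as Avicel in one field and as raw starch in another, and the study describes commercial corn starch. Several Δ*rsrC* transformants were made in the study, and which of them gave the libraries is not given in the sources used here. The study states 3 biological replicates per strain where it describes the sequencing of another mutant. Its account of the Δ*rsrC* sequencing does not say this, so the spread over libraries may be technical.

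In filamentous fungi, genes that act in one metabolic route often lie side by side. Such clusters are best known from secondary metabolism, for example the penicillin genes of *Penicillium chrysogenum* and the aflatoxin genes of *Aspergillus flavus*, and many of them are near silent in common media and become transcribed together when a regulator or the local chromatin changes. A cluster can hold its own regulator gene, as the aflatoxin cluster does, and can carry genes at its edges that are transcribed independently of it. Products of the 15 block genes were not analysed here, so no role is stated for them. In the RefSeq gene table of strain HP7-1, which held 43 of the 44 genes, the members lay in number order and no neighbouring gene models overlapped. Among the flank genes, POX_f08115 is a putative transcription factor gene that was deleted elsewhere in the study.

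*rsrC* was listed at 0 FPKM in all 3 Δ*rsrC* libraries and at 27.1, 30.3 and 39.0 FPKM in the Δ*ku70* libraries. Read numbers are unknown. Relative to Δ*ku70* replicate 1, depth estimated from low values was 77.8% to 105% in Δ*rsrC* and 82.1% to 100% in Δ*ku70*, with Δ*rsrC* replicate 2 the deepest. Sporulation genes were used as markers of spore-forming cells that a mycelium sample can hold. All 3 of 3 (*brlA*, a *rodA*-like gene and *rodB*) were above 0 in each library, and their summed level was 38.2 to 94.1 FPKM in Δ*rsrC* against 155 to 231 FPKM in Δ*ku70*. Nearly all of this sum came from the *rodA*-like gene (24.4 to 43.0 against 87.1 to 146 FPKM) and *rodB* (13.35 to 49.5 against 66.7 to 87.0 FPKM). The regulator gene *brlA* was near 0 and overlapped between the strains, at 0.42 to 1.59 FPKM in Δ*rsrC* and 0.81 to 1.71 FPKM in Δ*ku70*. The part of these markers in the values below was not tested, and in bulk mycelium a change in the share of a cell type cannot be told apart from a change of RNA per cell. Tests were run on 8605 genes, those whose mean over the 6 libraries reached 1 FPKM, and their median difference between Δ*rsrC* and Δ*ku70* was -0.13 on the log2(FPKM + 1) scale.

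All 15 block genes had a higher level in each Δ*rsrC* library than in any Δ*ku70* library, and the mean was at least 2-fold higher for every one of them. By the same criterion 5.5% of the 8605 genes qualified. The fold change of mean FPKM ranged from 2.09 (POX_f08122) to 138 (POX_f08121), with a median of 11.05, and 8 of the 15 genes were at least 10-fold higher, against 0.36% of all tested genes. Mean levels across the block ran from 35.0 to 828 FPKM in Δ*rsrC* and from 2.65 to 307 FPKM in Δ*ku70*. The median of the 15 means was 142 FPKM in Δ*rsrC* and 11.6 FPKM in Δ*ku70*. The median difference on the log2(FPKM + 1) scale was 3.13, with a range of 1.03 to 6.76 and standard errors of 0.14 to 0.45. In the limma fit over all genes, all 15 were called higher at an adjusted p-value under 0.05, a call that 13.8% of the tested genes received. As these libraries also chose the block, this count is no test of it.

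**Figure D1:**
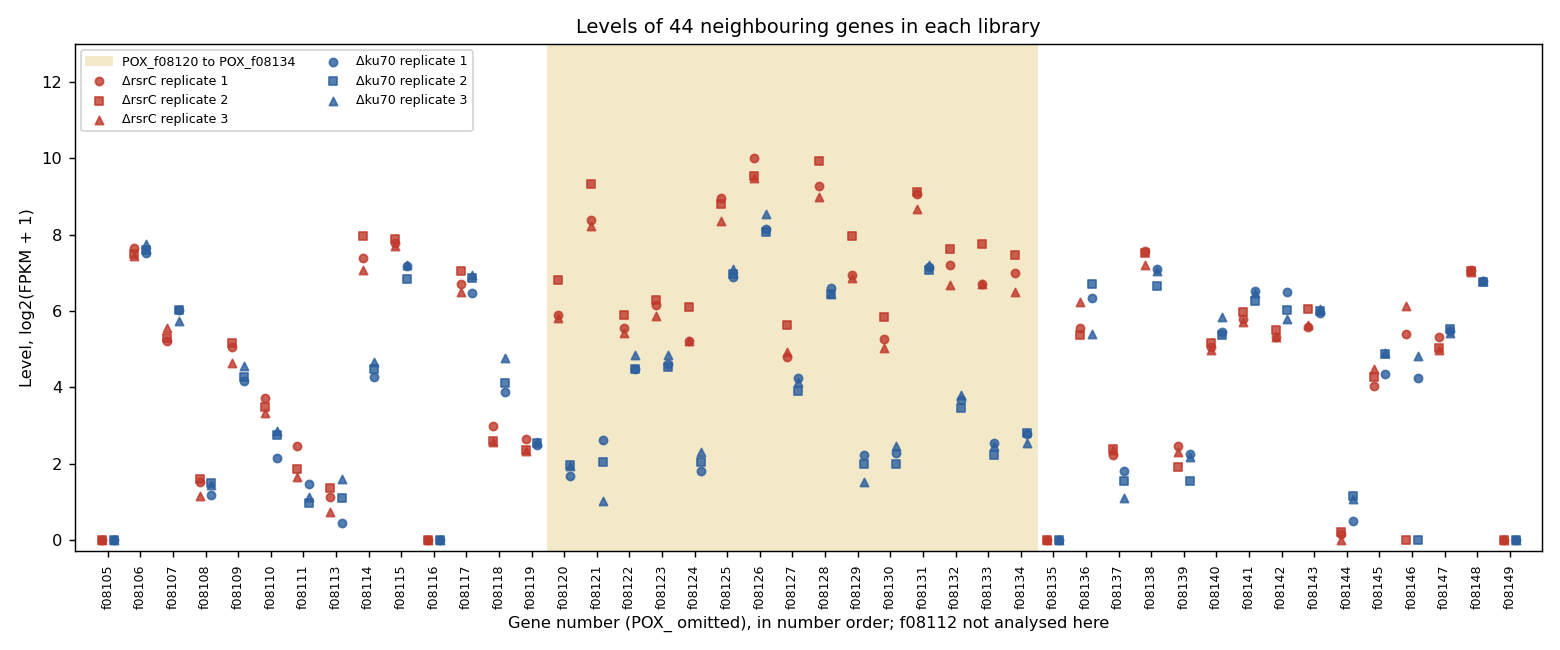
Level of each of the 44 genes in every library, as log2(FPKM + 1) on the vertical axis and in gene number order on the horizontal axis, with Δ*rsrC* libraries in red to the left of Δ*ku70* libraries in blue and the 15 block genes shaded. Inside the shading every red point lies above every blue point of the same gene, while the red and blue points of POX_f08119 and POX_f08136, outside its borders, overlap.

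The block opened with a pair of genes that were barely transcribed in the parent. POX_f08120 was at 58.2, 111 and 55.8 FPKM in Δ*rsrC* replicates 1, 2 and 3, and at 2.18, 2.94 and 2.82 FPKM in the Δ*ku70* replicates, a 28.3-fold higher mean. POX_f08121 was at 337, 648 and 302 FPKM in Δ*rsrC* and at 5.20, 3.12 and 1.02 FPKM in Δ*ku70*, which is 138-fold. Replicate 2 stood highest among the Δ*rsrC* libraries for both genes. The Δ*ku70* values of POX_f08121 spread over a 5.10-fold range, so that its fold change is less certain than that of POX_f08120. Without Δ*ku70* replicate 1 it was 207-fold, without Δ*ku70* replicate 3 103-fold and without Δ*rsrC* replicate 2 102-fold. On the log2(FPKM + 1) scale the differences were 6.76 (SE 0.45) and 4.31 (SE 0.27).

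The next pair had the opposite character, being moderately expressed already in the parent. POX_f08122 was at 46.1, 58.5 and 42.1 FPKM in Δ*rsrC* against 21.2, 21.2 and 27.6 FPKM in Δ*ku70*, and its mean was 2.09-fold higher, the smallest ratio in the block. POX_f08123 was at 70.8, 77.0 and 57.9 FPKM in Δ*rsrC* against 23.6, 22.2 and 28.1 FPKM in Δ*ku70*, or 2.79-fold. The mutant libraries of both genes lay closer together than those of POX_f08120 and POX_f08121. POX_f08124 returned to the first pattern. It was at 36.0, 67.7 and 35.9 FPKM in Δ*rsrC* and at 2.51, 3.16 and 3.92 FPKM in Δ*ku70*, 14.6-fold higher in the mean.

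POX_f08125 and POX_f08126 were among the most abundant block transcripts per unit of length in both strains. POX_f08125 was at 499, 444 and 327 FPKM in Δ*rsrC* and at 118, 124 and 135 FPKM in Δ*ku70*, 3.36-fold higher in Δ*rsrC*. POX_f08126 was at 1025, 749.7 and 711 FPKM in Δ*rsrC* and at 281, 266 and 374 FPKM in Δ*ku70*, or 2.70-fold. These were the 2 block genes in which Δ*rsrC* replicate 1, and not replicate 2, had the highest level. POX_f08127, beside them, was at 26.9, 48.6 and 29.6 FPKM in Δ*rsrC* against 17.8, 14.1 and 16.5 FPKM in Δ*ku70*. Its mean was 2.17-fold higher, and the lowest Δ*rsrC* library of this gene was 1.51-fold above the highest Δ*ku70* library, the narrowest such gap among the 15 genes.

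The next neighbours included a very abundant gene and, beside it, one with a very large ratio. POX_f08128 was at 621, 981 and 509.8 FPKM in Δ*rsrC* and at 96.5, 86.1 and 86.2 FPKM in Δ*ku70*, 7.86-fold higher in Δ*rsrC*. POX_f08129 was at 122, 252 and 116 FPKM in Δ*rsrC* and at 3.70, 3.01 and 1.85 FPKM in Δ*ku70*, or 57.1-fold, the second largest ratio of the block. Per unit of length, POX_f08128 was the second most abundant block transcript in Δ*rsrC*, after POX_f08126. POX_f08130 was at 37.6, 56.1 and 31.6 FPKM in Δ*rsrC* against 3.83, 2.97 and 4.54 FPKM in Δ*ku70*, which is 11.05-fold. POX_f08131 was at 537, 551 and 405 FPKM in Δ*rsrC* against 140.3, 134 and 146 FPKM in Δ*ku70*, which is 3.55-fold. It had the tightest Δ*ku70* libraries of the block relative to its mean, 140.2 ± 5.79 FPKM (SD, n = 3).

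The last 3 genes were all more than 10-fold higher in Δ*rsrC*. POX_f08132 was at 148, 195 and 101 FPKM in Δ*rsrC* and at 11.8, 10.1 and 12.9 FPKM in Δ*ku70*, 12.8-fold higher in Δ*rsrC*. POX_f08133 was at 104, 217 and 104 FPKM in Δ*rsrC* and at 4.81, 3.71 and 4.56 FPKM in Δ*ku70*, or 32.5-fold. POX_f08134, the last gene of the block, was at 126, 175 and 90.3 FPKM in Δ*rsrC* and at 5.83, 6.04 and 4.80 FPKM in Δ*ku70*, or 23.5-fold. The block therefore ended, as it began, on a gene with a large ratio.

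**Figure D2:**
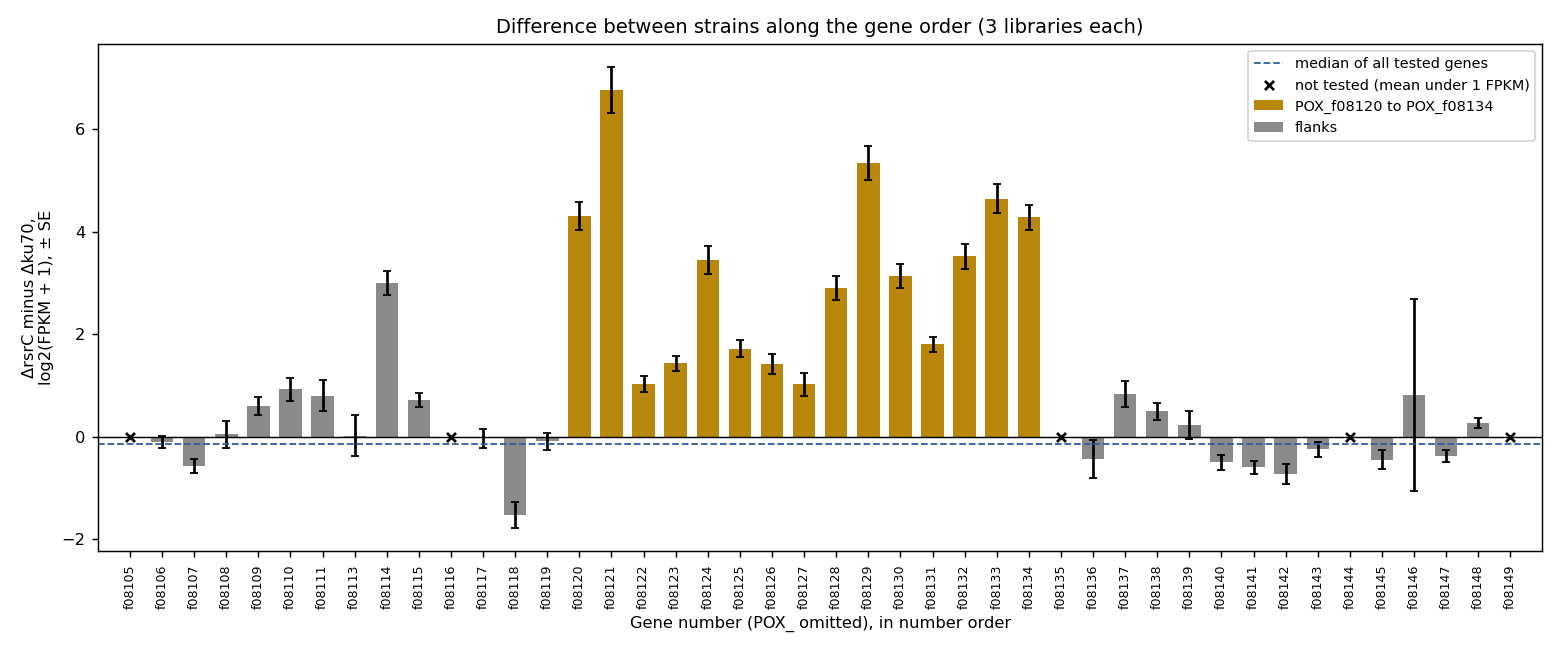
Difference Δ*rsrC* minus Δ*ku70* on the log2(FPKM + 1) scale for each gene in number order, with bars for the limma estimate, error bars for ± SE (3 libraries per strain), gold for the block, grey for the flanks and crosses for genes with a mean under 1 FPKM. The gold bars run from 1.03 to 6.76, and among the grey bars POX_f08114, at 3.01, reaches that range.

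The genes at the borders overlapped between the strains or were listed at 0. On the left, POX_f08119 was at 5.28, 4.13 and 4.03 FPKM in Δ*rsrC* and at 4.60, 4.81 and 4.96 FPKM in Δ*ku70*. These values overlap, with a ratio of means of 0.935 and a log2 difference of -0.09 (SE 0.17). Its neighbour POX_f08120, which was 28.3-fold higher in Δ*rsrC*, had a similarly low Δ*ku70* mean, 2.65 FPKM against 4.79 FPKM for POX_f08119. On the right, POX_f08135 was listed at 0 in all 6 libraries. The next gene, POX_f08136, was at 45.7, 40.2 and 75.1 FPKM in Δ*rsrC* and at 80.1, 104 and 41.5 FPKM in Δ*ku70*, again with overlap.

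In the next numbers outward, the differences between the strains were smaller or ran the other way. POX_f08118 was at 6.95, 5.04 and 4.94 FPKM in Δ*rsrC* and at 13.6, 16.4 and 26.2 FPKM in Δ*ku70*. It had the lowest ratio of the tested flank genes, with a mean 0.301 times that of Δ*ku70* and a log2 difference of -1.53 (SE 0.25), and by the criterion of an at least 2-fold lower mean without overlap 7.11% of all tested genes qualified. POX_f08117 was at 103, 131 and 89.5 FPKM in Δ*rsrC* against 88.6, 116 and 123 FPKM in Δ*ku70*, with overlap. POX_f08137 was at 3.65, 4.27 and 4.09 FPKM in Δ*rsrC* against 2.48, 1.94 and 1.15 FPKM in Δ*ku70*. Its ratio of 2.16 is close to those of POX_f08122 and POX_f08127 inside the block, and it is parted from the block by POX_f08135 and POX_f08136.

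Within the left flank, POX_f08114 stood out as a gene with a block-like difference outside the block. It was at 168, 252 and 135 FPKM in Δ*rsrC* and at 18.2, 21.4 and 24.6 FPKM in Δ*ku70*. Its mean was 8.62-fold higher in Δ*rsrC*, with a log2 difference of 3.01 (SE 0.24), and its Δ*rsrC* libraries had the order seen in most block genes, with replicate 2 highest and replicate 3 lowest. That order is not particular to it. It held in 9 of the 23 flank genes that could be ordered, POX_f08115 and POX_f08117 among them, and in 18.6% of all genes. POX_f08114 is parted from POX_f08120 by 5 genes. Of these, POX_f08116 was listed at 0 in all libraries, POX_f08117 and POX_f08119 overlapped, and POX_f08118 was lower in Δ*rsrC*.

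The remaining gene of that interval is POX_f08115, the putative transcription factor gene. It was at 221, 238 and 208 FPKM in Δ*rsrC* and at 145, 113 and 146 FPKM in Δ*ku70*. The groups did not overlap and the mean was 1.65-fold higher in Δ*rsrC*, below the 2-fold that all block genes reached, with a log2 difference of 0.72 (SE 0.13). It was well expressed in both strains.

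The other left flank genes with a 2-fold difference were weakly expressed. POX_f08110 was at 12.2, 10.2 and 9.08 FPKM in Δ*rsrC* and at 3.44, 5.74 and 6.23 FPKM in Δ*ku70*, 2.04-fold higher. POX_f08111 was at 4.52, 2.61 and 2.17 FPKM in Δ*rsrC* and at 1.78, 0.97 and 1.18 FPKM in Δ*ku70*, or 2.37-fold. Both had replicate 1, not replicate 2, as the highest Δ*rsrC* library. In the right flank, POX_f08144 was at 0.11, 0.16 and 0 FPKM in Δ*rsrC* and at 0.42, 1.21 and 1.12 FPKM in Δ*ku70*, without overlap, but its mean was too low for it to be tested.

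Of the 14 left flank genes, 12 were tested and 2 were listed at 0 in all libraries. In the limma fit 4 of the 12 were called higher in Δ*rsrC* (POX_f08109, POX_f08110, POX_f08114 and POX_f08115), 2 were called lower (POX_f08107 and POX_f08118) and 6 were not called. Their median log2 difference was 0.04, with a range of -1.53 to 3.01. Of the 15 right flank genes, 12 were tested, and 2 of the other 3 were listed at 0 in all libraries. Here 3 of the 12 were called higher (POX_f08137, POX_f08138 and POX_f08148), 4 were called lower (POX_f08140, POX_f08141, POX_f08142 and POX_f08147) and 5 were not called. Their median log2 difference was -0.31, with a range of -0.72 to 0.83. Among the lower ones POX_f08140, POX_f08141 and POX_f08142 are neighbours, with log2 differences of -0.49, -0.60 and -0.72. The flank genes not described singly, leaving out those at 0, had means of 1.14 (POX_f08113) to 184 FPKM (POX_f08106) in Δ*rsrC* and 1.18 to 197 FPKM in Δ*ku70* for the same genes, and ratios from 0.588 (POX_f08142) to 1.56 (POX_f08109). Over all tested genes 13.8% were called higher and 25.6% lower. The share called higher was larger than this in both flanks, at 4 of 12 and 3 of 12. The share called lower was smaller in the left flank, at 2 of 12, and larger in the right, at 4 of 12. With 12 tested genes in each, no result about the flanks is read from these counts. In numbers, 1184 genes were called higher and 2202 lower over the whole table, but this split depends on the scaling: it was 744 to 3651 with equal FPKM sums per library, 1623 to 1490 with median-ratio scaling and 1374 to 1479 with quantile normalization.

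The number of flank calls changed when a library was left out, and so did the number of calls over all genes. Over all genes, leaving out 1 library gave 762 to 1271 called higher and 1364 to 2205 lower, in place of 1184 and 2202. Without any 1 of the 6 libraries, 2 to 4 right flank genes were called in either direction in place of 7, and without Δ*rsrC* replicate 1 or Δ*rsrC* replicate 2, 3 left flank genes were called in place of 6. POX_f08146 had the least certain difference of the stretch. It was at 41.1, 0 and 69.1 FPKM in Δ*rsrC* and at 18.0, 0 and 27.1 FPKM in Δ*ku70*, listed at 0 in replicate 2 of both strains. Its log2 difference was 0.82 (SE 1.87), and without 1 library it ran from -0.69 to 2.74.

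Runs of this kind were counted over all 9822 genes in number order, with a run defined as genes next in line among those of the tables with the same letter in their ID, whose mean was at least 2-fold higher in Δ*rsrC* without overlap. The 508 genes that met the criterion, those with a mean under 1 FPKM included, fell into 429 runs, of which 12 had at least 3 genes and 2 had at least 5. POX_f08120 to POX_f08134 was the longest with 15 genes, and POX_e06165 to POX_e06169 came next with 5. Since the block was chosen as a raised stretch by this same difference in these libraries, its rank is a description and no test. Among genes at least 2-fold lower, the longest run held 4 (POX_d05829 to POX_d05832). The length of the run depends on its weakest genes. Without Δ*rsrC* replicate 2, POX_f08122 was 1.89-fold and POX_f08127 1.75-fold higher. Under that setting 13 of the 15 genes passed, the longest stretch within the block was POX_f08128 to POX_f08134 with 7 genes, and POX_e06163 to POX_e06169 formed a run of the same length. When each library was rescaled to an equal sum of FPKM, the same 2 genes were 1.79-fold and 1.85-fold higher, and the longest stretch was again the 7 genes from POX_f08128. With a minimum of 4-fold, the longest runs were POX_f08128 to POX_f08130 and POX_f08132 to POX_f08134, with 3 genes each.

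The block genes were divided by their mean level in the parent at 10 FPKM, a boundary set after the values were seen. The 7 genes under it (POX_f08120, POX_f08121, POX_f08124, POX_f08129, POX_f08130, POX_f08133 and POX_f08134) had means of 41.8 to 429 FPKM in Δ*rsrC* and 2.65 to 5.56 FPKM in Δ*ku70*, with ratios of 11.05 to 138 and a median of 28.3. The 8 genes above it had means of 35.0 to 828 FPKM in Δ*rsrC* and 11.6 to 307 FPKM in Δ*ku70*, with ratios of 2.09 to 12.8 and a median of 3.07. The parent level is also the denominator of these ratios, so larger ratios under the boundary are partly built in. Both the ratios and the Δ*rsrC* means of the groups overlap. Genes with low and with higher parent levels were interleaved along the block, not set apart at one end. Across the 15 genes the level in Δ*rsrC* followed the level in Δ*ku70* loosely (Spearman's rho = 0.41 across genes, which share the same libraries and are not independent).

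The co-variation of the block over the Δ*rsrC* libraries was read from the order of the 3 libraries, since 3 libraries allow no correlation. Replicate 2 was the highest in 13 of the 15 block genes, against 38.2% of the 8405 tested genes whose libraries could be ordered and 11 of 23 flank genes. Replicate 3 was the lowest in 14 of the 15, against 40.9% of all genes and 17 of 23 flank genes. The full order, replicate 2 above replicate 1 above replicate 3, held in 12 of 15 block genes, 18.6% of all genes and 9 of 23 flank genes. No single order held for the block in Δ*ku70*, where the most frequent one (replicate 3, then 1, then 2) occurred in 5 of the 14 genes without tied values. Replicate 2 was the lowest in 8 of these 14 genes, against 35.6% of all genes and 7 of 23 flank genes. In the 8 block genes above 10 FPKM in Δ*ku70*, the median ratio of Δ*ku70* replicate 2 to replicate 3 was 0.821. This ratio was above 1 in 0 of these 8 genes. Its median was 1.04 in the 7 other block genes, above 1 in 4 of 7, and 0.948 over all tested genes, above 1 in 3481 of 8440.

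The difference between the Δ*rsrC* libraries was one of size as well as order. The median ratio of replicate 2 to replicate 1 was 1.49 over the block and 1.02 over all tested genes, while it was 1.07 in the left flank and 1.09 in the right flank. The ratio of replicate 2 to replicate 3 was 1.88 over the block, above 1 in 15 of 15 genes. It was 1.17 in the left flank, above 1 in 11 of 12 genes, 1.04 in the right flank, above 1 in 8 of 11 genes, and 1.04 over all tested genes, above 1 in 5105 of 8455. Replicates 1 and 3 lay closer to each other, with a median ratio of 1.19 over the block. Replicate 2 was also the deepest Δ*rsrC* library, and the part of depth in this was not tested. The summed sporulation markers were at 94.1, 76.9 and 38.2 FPKM in Δ*rsrC* replicates 1, 2 and 3. Replicate 3 was thus the lowest, as in 14 of the 15 block genes, but replicate 1 and not replicate 2 was the highest. The part of spore-forming cells was not tested.

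**Figure D3:**
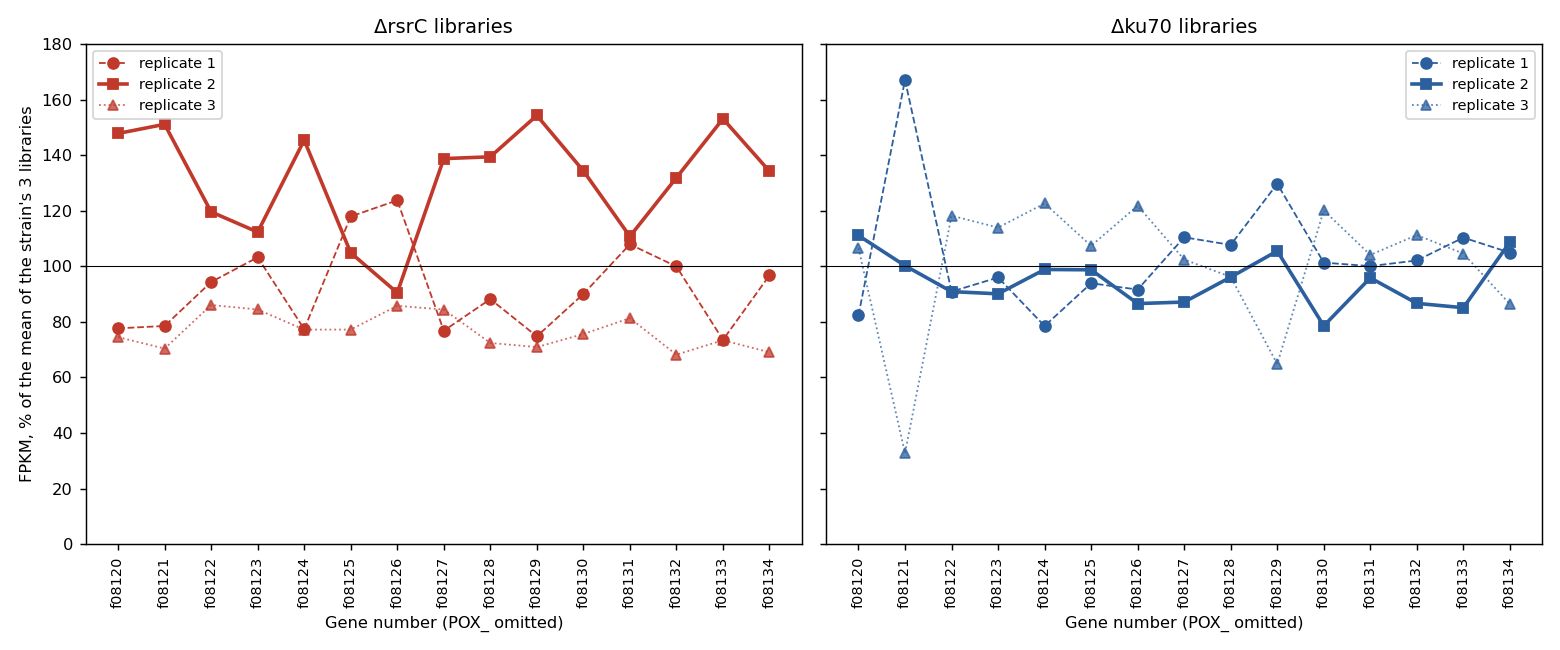
FPKM of the 15 block genes in each library as a percentage of the mean of the 3 libraries of the same strain, with Δ*rsrC* on the left, Δ*ku70* on the right and genes in number order on the horizontal axis. The Δ*rsrC* replicate 2 line (squares) is on top for 13 of the 15 genes, and the Δ*ku70* lines cross repeatedly.

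Replicate 2 exceeded the mean of Δ*rsrC* replicates 1 and 3 most in the genes with the lowest levels in the parent. In these 7 genes the ratio was 1.62 to 2.12, with a median of 1.94. In the 8 genes above 10 FPKM in Δ*ku70* it was 0.864 to 1.74, with a median of 1.26. POX_f08126, the gene with the highest Δ*ku70* level, gave the lowest ratio, and POX_f08129, POX_f08133 and POX_f08121 gave the highest. Across the 15 genes the ratio ran against the Δ*ku70* mean (Spearman's rho = -0.84, a description over genes that share the same 6 libraries). POX_f08128 departed from this trend, with a ratio of 1.74 at a Δ*ku70* mean of 89.6 FPKM. POX_f08127 did so less, with a ratio of 1.72 at a Δ*ku70* mean of 16.1 FPKM. Both lay above POX_f08130 and POX_f08134, at 1.62 each, which had Δ*ku70* means under 10 FPKM.

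**Figure D4:**
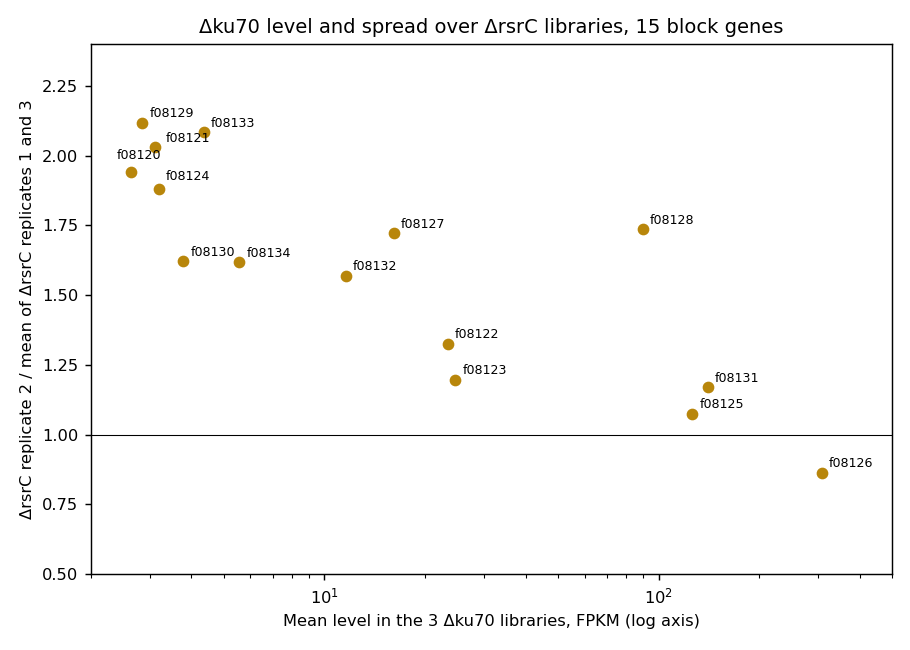
Level of Δ*rsrC* replicate 2 divided by the mean of Δ*rsrC* replicates 1 and 3 (vertical axis, no unit) against the mean FPKM in the 3 Δ*ku70* libraries (horizontal axis, log scale), with 1 point per block gene. The points descend from the upper left, where the 7 genes under 10 FPKM lie between 1.62 and 2.12, to 0.864 for POX_f08126 at the lower right.

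Summed over its 15 genes, the block reached 3795, 4631 and 2917 FPKM in the Δ*rsrC* libraries, against 739, 703 and 850.1 FPKM in the Δ*ku70* libraries. This was 0.250% ± 0.0555 of all FPKM in Δ*rsrC* and 0.0591% ± 0.00498 in Δ*ku70* (SD, n = 3 each). The 7 genes with Δ*ku70* means under 10 FPKM had a median of 104, 175 and 90.3 FPKM in Δ*rsrC* replicates 1, 2 and 3, and of 3.12 to 3.92 FPKM in the Δ*ku70* libraries.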

How the data were processed

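Polyadenylated RNA was enriched with oligo(dT), primed at random, amplified and sequenced as circular libraries on a BGISEQ instrument. Whether the libraries keep strand is not given in the sources used here. The authors deposited 1 table of FPKM per library for 9822 genes, rounded to 2 decimals. The study names BWA, Bowtie2 and RSEM with the genome of strain HP7-1, whereas the submitters' processing notes name HISAT2 and bcl2fastq, so the aligner is uncertain. FPKM divides by all mapped fragments, so a few very abundant genes can lower all others, and it holds no read number. Relative depth was estimated from genes between 0.1 and 2 FPKM.

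Values were transformed as log2(FPKM + 1). The 8605 genes whose mean reached 1 FPKM were fitted with limma 3.58.1 in R 4.3.3 (lmFit, eBayes with trend, no covariate), with Benjamini-Hochberg adjustment over all of them and a threshold of 0.05. The fit was also run on simulated data with independent noise per gene. The simulated noise held no shift shared by the genes of a library, and the outcome is not given here. The study's own NOISeq comparison was not run. Fold changes are ratios of mean FPKM and errors are SD over 3 libraries unless SE is named. Groups came from the titles, and ranges, ratios and orders were computed with Python 3.11.15 and pandas 2.3.3. The members and lists were chosen with earlier results of these data known. By rule, values per library are given for the block genes, for 3 numbers on each side, for POX_f08115 and for flank genes at least 2-fold different without overlap, and the others are counted. The RefSeq table of assembly ASM172317v3, used for names and gene order only, matched 9718 of the 9822 IDs. The promoter and protein features that had been planned were not analysed here. The 14 alternatives were another pseudocount, 2 other filters, 3 scalings, limma without trend, a replicate block and each library left out.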

Additional observations from a re-analysis of the deposited data

How the results depend on the processing

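All 15 block genes were called higher under all 14 alternatives, and the sign of none of the 15 log2 differences changed in 210 values, which ran from 0.77 to 7.24. In the left flank 16 of 163 values changed sign (POX_f08106, POX_f08108, POX_f08113, POX_f08117 and POX_f08119), and in the right flank 2 of 166, both of POX_f08146. With equal FPKM sums per library, 744 genes were called higher and 3651 lower, the median log2 difference of all genes was -0.34 in place of -0.13, and the uninterrupted run around POX_f08121 was 2 genes long in place of 15. Of the right flank genes, 4 were called with median-ratio scaling, 3 after quantile normalization and 4 without the trend in eBayes, in place of 7; the causes were not tested. Over the 8605 tested genes, deviations from the strain mean showed no pairing of the samples by replicate number (correlations of 0.00, -0.13 and -0.24 for replicates 1, 2 and 3). Whether libraries of the same number were handled together was not tested, and POX_f08146 was at 0 in replicate 2 of both strains. With the replicate block, 785 genes were called higher, 1428 lower, 3 in the left flank and 2 in the right flank. Leaving out 1 library at a time gave 762 to 1271 genes called higher, 1364 to 2205 lower, 3 to 6 called in the left flank, 2 to 4 in the right flank, 13 to 15 block genes at least 2-fold higher without overlap, and a run around POX_f08121 of 2 to 15 genes. The run was 2 genes long without Δ*rsrC* replicate 2 and 15 without any other library. Leaving out 1 library tests fewer samples; where an arm then holds 2 libraries, limma pools the spread. As an alternative chosen after seeing the data, the order of the libraries was recomputed after scaling, and Δ*rsrC* replicate 2 was highest in 13 block genes with equal sums, 12 with median-ratio scaling and 13 after quantile normalization.

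Read numbers are unknown, so no counting error is attached to the levels, and values of a few FPKM in Δ*ku70* leave the largest ratios the least certain. The mutant is compared with its parent at a single time and in a single medium. The genes were chosen on the same 6 libraries.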
